A study of Mus musculus with 8 samples.

Results

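Matrix metalloproteinases (Mmp genes), their tissue inhibitors (Timp genes), ADAMTS proteases (Adamts genes) and the protease-free ADAMTS-like proteins (Adamtsl genes) were followed in mouse skin. The members were taken from the gene table by name alone, which gave 51 genes of 21885: 23 Mmp, 4 Timp, 19 Adamts and 5 Adamtsl genes. RNA sequencing had been done on 4 libraries of skin treated with MC903 plus phytic acid (called phytic acid skin here) and 4 libraries of skin treated with MC903 alone (MC903 skin). The vitamin D analogue calcipotriol, sold to researchers as MC903, inflames mouse skin in a way that resembles atopic dermatitis, and phytic acid is the inositol phosphate in which plant seeds store phosphate. Both groups received MC903 and neither was untreated, so each difference is relative to MC903 skin. The sources used here do not give strain, age, sex, skin site, dose or time. Nor do they say whether each library is a mouse of its own, so a p-value measures only how these samples spread, and that spread may be technical. Keratinocyte, fibroblast and skeletal muscle markers were abundant in all 8 libraries.

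Matrix metalloproteinases are zinc proteases that are made as inactive precursors and, once cut or otherwise activated, break down collagens, proteoglycans, laminins and other proteins outside the cell. TIMPs bind their active site and block it. ADAMTS proteases are secreted relatives that trim proteoglycans, remove the end pieces of procollagens or cut proteins of cartilage and blood, whereas ADAMTS-like proteins share their accessory domains, lack the protease and bind microfibrils. In skin, several of these genes are known to be switched on in keratinocytes and fibroblasts after wounding and in inflammation, often through AP-1, a transcription factor made of Fos and Jun proteins. RNA levels say nothing of how much of the protein was active.

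The deposited values are FPKM, which divide a gene's fragments by its length and by the size of the library, so that levels of different genes can be compared per length. The library totals recovered from them were 38310034 to 42997271 reads in phytic acid skin and 31676934 to 37639477 reads in MC903 skin. No phytic acid library was as shallow as any of the MC903 libraries. A difference is the log2 fold change of FPKM + 1, phytic acid skin minus MC903 skin, and it understates the change of low genes. A call is an adjusted p under 0.05 in limma's test with Benjamini-Hochberg adjustment over the 12165 genes that reached an FPKM of 1 in 4 or more libraries. MC903 replicate 3 stood apart from the other MC903 libraries, with a mean chi-square per gene of 163 to 199.7 against each of them and 45.4 to 91.4 among the rest. It also held far more RNA of hair follicle genes, as described at the end. Among the phytic acid libraries the mean chi-square per gene was 71.8 to 157.6, highest between replicates 1 and 3. The samples are bulk tissue, in which fewer cells of a type and less RNA per cell cannot be told apart.

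Of the 51 members, 28 passed the filter and were tested, and 16 of these were called, 9 lower and 7 higher in phytic acid skin. Among all genes tested, 25.8% were called, 11.6% lower and 14.2% higher. The balance of directions over all genes turned with the scaling: 1722 were higher and 1412 lower as fitted, 1469 higher and 1828 lower with median-of-ratios scaling, and 1652 higher and 1748 lower with quantile scaling. Of the members, 5 were higher and 9 lower under both of these scalings. The median log2 fold change was -0.05 over the tested members and 0.05 over all tested genes. Mmp8 passed the filter through MC903 skin alone, so its difference was in part set by the filter. Adamts14 reached an FPKM of 1 in 4 phytic acid libraries and 1 MC903 library, and Mmp23 in 4 and 2. Adamts4 reached it in 2 phytic acid libraries and 4 MC903 libraries. Without a filter Adamts14 and Mmp23 were still called (adjusted p = 0.0112 and 0.0199 by limma), and Adamts4 was not (0.0517). Both groups were fully apart for 9 of the 28, all of them called: 4 lower and 5 higher. Among all genes tested this held for 27.3%, with 13% lower and 14.3% higher. Of the 16 calls, 6 held in every fit that left out 1 of the 8 libraries: Mmp13, Mmp11, Mmp12, Mmp23, Adamts14 and Adamtsl1. The other 10 depended on particular libraries, which are named with each gene. Without MC903 replicate 3, 9 were lower and 7 higher, but Mmp28 was lost (adjusted p = 0.0569 by limma) and Timp3 was gained (0.0336). They were 3 to 5 lower without MC903 replicate 1 or 4 or any 1 phytic acid library, and 4 higher without phytic acid replicate 1 or 2 or MC903 replicate 1, 2 or 4.

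**Figure D1:**
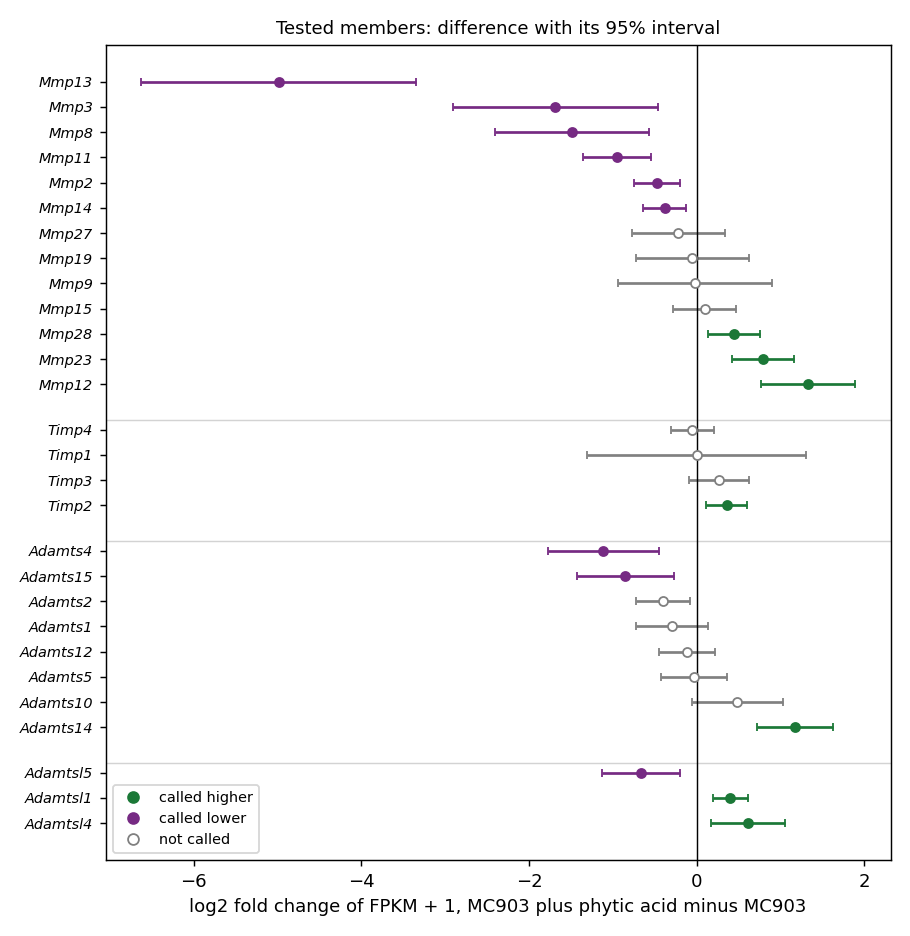
Difference of each of the 28 tested members (log2 fold change of FPKM + 1, MC903 plus phytic acid minus MC903, horizontal axis), with points for the estimate and bars for its 95% interval, grouped from top to bottom into Mmp, Timp, Adamts and Adamtsl genes. Mmp13 lies at -4.99, far left of the rest, and Mmp12 (1.33) and Adamts14 (1.17) lie farthest right.

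Several Mmp genes with large differences sit near each other in the genome. Per the submitters' processing notes the build was mm10, and GENCODE's annotation of the same assembly, GRCm38, puts 10 members between positions 7272514 and 7699585 of chromosome 9, a stretch of 427 kb. Their order from Mmp13 onwards is Mmp12, Mmp1b, Mmp3, Mmp1a, Mmp10, Mmp8, Mmp27, Mmp20 and Mmp7, and Mmp1b alone is on the minus strand. The promoters of 36 members were found in RefSeq's GRCm38.p6 table, as windows of 300 bases that run from 250 bases before the start site. The AP-1 motif TGAGTCA, on either strand, was present in the promoters of 7 of these 36 genes, and the 7 were Mmp13, Mmp12, Mmp1b, Mmp3, Mmp1a, Mmp10 and Mmp7. All 7 are among the 10 genes of the cluster, and 0 of the 26 other members with a promoter found held it. The members without a promoter found all lie outside the cluster, so the motif was not looked for in them. Among them are the called Mmp2, Adamts4, Adamts15 and Adamtsl1, and also Mmp9 and Mmp19. Among tested members with a promoter found, 2 of 6 called lower, 1 of 6 called higher and 0 of 8 not called held the motif. Mmp1a and Mmp1b are close copies, so their matches are not independent. Over the promoters of all 27025 genes in that table, 5.95% of genes held the motif, and 9.77% held the TATA box motif TATAAA on their own strand, which 8 of the 10 cluster genes held. Below are 150 bases of the cluster promoters, from 130 bases before the start site, in the order of the genome and 5′ to 3′ along the gene, because 3 members called lower and 1 called higher lie near each other here. Capitals mark the AP-1 motif and the TATA box motif, which do not overlap; in Mmp13 the AP-1 motif is on the other strand and reads as its reverse complement. Mmp20 and Mmp7 are left out, having almost no reads.
Mmp13, chr9:7272384-7272533, plus strand: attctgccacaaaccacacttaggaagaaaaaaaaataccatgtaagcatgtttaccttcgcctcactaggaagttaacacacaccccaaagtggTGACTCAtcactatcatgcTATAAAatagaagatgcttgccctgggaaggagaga
Mmp12 at its upstream start, chr9:7344267-7344416, plus strand: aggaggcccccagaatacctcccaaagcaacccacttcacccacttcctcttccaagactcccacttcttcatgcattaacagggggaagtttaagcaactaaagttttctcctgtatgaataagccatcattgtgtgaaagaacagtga
Mmp12 at its downstream start, chr9:7347244-7347393, plus strand: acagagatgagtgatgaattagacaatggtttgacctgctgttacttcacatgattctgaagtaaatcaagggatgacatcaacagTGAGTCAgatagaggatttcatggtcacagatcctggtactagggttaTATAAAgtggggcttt
Mmp1b, chr9:7388007-7388156, minus strand: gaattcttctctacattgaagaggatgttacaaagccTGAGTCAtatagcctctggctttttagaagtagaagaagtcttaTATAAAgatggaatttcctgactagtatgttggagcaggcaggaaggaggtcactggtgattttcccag
Mmp3, chr9:7445692-7445841, plus strand: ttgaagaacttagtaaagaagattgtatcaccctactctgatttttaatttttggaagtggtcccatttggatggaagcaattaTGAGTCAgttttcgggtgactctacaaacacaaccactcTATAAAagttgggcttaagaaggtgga
Mmp1a, chr9:7464011-7464160, plus strand: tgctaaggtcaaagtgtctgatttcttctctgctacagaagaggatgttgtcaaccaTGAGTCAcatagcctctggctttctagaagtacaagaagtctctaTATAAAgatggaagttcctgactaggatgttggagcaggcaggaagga
Mmp10, chr9:7502212-7502361, plus strand: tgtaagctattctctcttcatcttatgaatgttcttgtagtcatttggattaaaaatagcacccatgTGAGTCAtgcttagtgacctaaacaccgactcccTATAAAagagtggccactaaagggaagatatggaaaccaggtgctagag
Mmp8, chr9:7558299-7558448, plus strand: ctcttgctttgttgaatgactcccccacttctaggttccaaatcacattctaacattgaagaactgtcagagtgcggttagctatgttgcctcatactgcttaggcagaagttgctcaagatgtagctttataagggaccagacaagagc
Mmp27, chr9:7571266-7571415, plus strand: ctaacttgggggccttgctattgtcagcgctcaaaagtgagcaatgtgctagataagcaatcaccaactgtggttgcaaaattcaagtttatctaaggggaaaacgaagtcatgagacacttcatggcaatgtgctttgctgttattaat
In these windows the AP-1 motif begins 35 bases before the start of Mmp13, 46 before that of Mmp3, 63 before Mmp10, 73 before Mmp1a and 93 before Mmp1b. Mmp12 has a pair of annotated starts, and the AP-1 motif precedes the downstream one, by 44 bases. The TATA box motif begins 16 bases before the start of Mmp13, 7 before Mmp3, 29 before Mmp10, 28 before Mmp1a and 49 before Mmp1b. In Mmp12 it begins 4 bases after the downstream start. All distances are from annotated starts. Mmp8 and Mmp27 hold neither motif in their windows. A match of letters is a description of the sequence, and binding was not measured.

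Mmp13, a collagenase and the main enzyme of that kind in rodents, was far lower in phytic acid skin. It stood at 0.707, 1.75, 4.50 and 5.79 FPKM in replicates 1 to 4 of phytic acid skin, against 185, 374, 27.6 and 87.3 FPKM in MC903 skin. Every phytic acid library was below every MC903 library, and MC903 replicate 3 was the lowest of its group. The values rest on 77, 179, 517 and 631 reads in phytic acid skin and 15704, 32075, 2773 and 8722 reads in MC903 skin. Its log2 fold change was -4.99 ± 0.73 (SE; adjusted p = 0.00175 by limma), the call held under each of the 20 alternatives, and the adjusted p ranged from 0.000106 to 0.00786 over them. The gene spans 7272514 to 7283331 on the plus strand of chromosome 9 and is protein-coding.

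Mmp3, a stromelysin that cuts proteoglycans, laminin and fibronectin and activates other Mmp precursors, was the next of the cluster in abundance in MC903 skin and was lower with phytic acid. It measured 23.2, 23.7, 49.6 and 49.3 FPKM in phytic acid skin and 186, 125, 32.0 and 208 FPKM in MC903 skin. The groups overlapped, because MC903 replicate 3 lay below phytic acid replicates 3 and 4. Its mean was 36.5 ± 15.0 FPKM in phytic acid skin and 138 ± 78.6 FPKM in MC903 skin (SD, n = 4 each), a log2 fold change of -1.68 ± 0.54 (SE) with an adjusted p of 0.0478 by limma. That call was close to the threshold. Without MC903 replicate 3 the adjusted p was 0.000886, and without any 1 of the other 7 libraries it was 0.0538 to 0.124. It was also 0.0509 to 0.0915 without a filter, with median-of-ratios or quantile scaling, with robust variances and by voom on reads.

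The other stromelysin of the cluster, Mmp10, is known from keratinocytes at wound edges and went the same way at a lower level. It stood at 0.0285, 0.121, 0.297 and 0.0854 FPKM in phytic acid skin, against 1.21, 5.74, 0.386 and 8.56 FPKM in MC903 skin. The groups did not overlap, though MC903 replicate 3 came close to phytic acid replicate 3. The gene was below the filter. Fitted without a filter its adjusted p was 0.0783 by limma, and it was 0.0644 by voom on the recovered reads, of which it had 2 to 22 in phytic acid skin and 25 to 551 in MC903 skin. Neither fit called it.

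Mmp8, the collagenase of neutrophil granules, was lower as well. It measured 0.142, 0.269, 0.575 and 0.526 FPKM in phytic acid skin and 4.49, 1.06, 1.28 and 7.43 FPKM in MC903 skin. The groups did not overlap, and MC903 replicates 1 and 4 were far above replicates 2 and 3. On the log2 scale the change was -1.49 ± 0.41 (SE; adjusted p = 0.0261 by limma), and the adjusted p was 0.0634 to 0.0746 without phytic acid replicate 1, phytic acid replicate 2 or MC903 replicate 1, and 0.0559 without a filter. Of 5 other neutrophil genes tested, 2 (S100a8 and Cxcr2) were called lower and 0 higher, while S100a9 (adjusted p = 0.0853 by limma), Retnlg (0.794) and Csf3r (0.676) were not called. The sum of the list without Mmp8 was 14.3 to 161 FPKM in phytic acid skin and 121 to 741 FPKM in MC903 skin, and the groups overlapped. Ly6g, a defining neutrophil marker, was listed at 0 in 6 of the 8 libraries and at 0.284 FPKM at most, and the part of neutrophils in the Mmp8 result was not tested.

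The rodent relatives of human MMP1, Mmp1a and Mmp1b, were barely present. Mmp1a, which the annotation classes as a polymorphic pseudogene, had 0, 0, 1 and 0 reads in phytic acid skin and 8, 4, 2 and 8 reads in MC903 skin. Mmp1b had 0, 0, 14 and 2 reads in phytic acid skin and 9, 50, 6 and 51 reads in MC903 skin, and its groups overlapped. Fitted without a filter, the adjusted p was 0.0403 for Mmp1a and 0.135 for Mmp1b by limma. The 2 genes are close copies, and the sources used here do not say how reads that match both were counted, so their single values are uncertain.

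**Figure D2:**
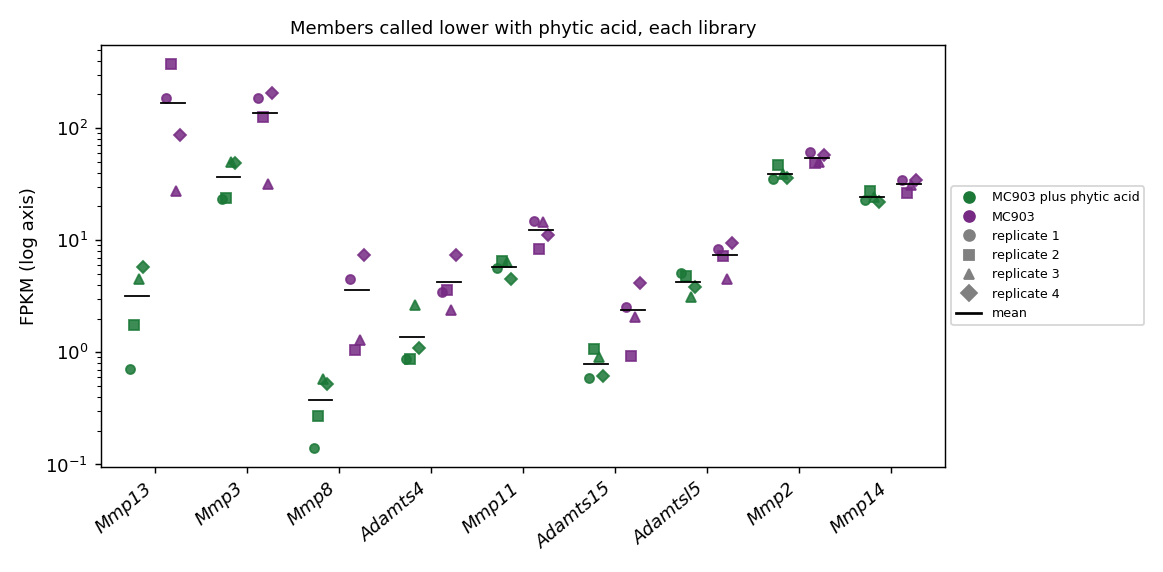
FPKM (log axis) of the 9 members called lower, in every library, with MC903 plus phytic acid left and MC903 right for each gene, markers for the replicate number and lines for the group mean. Mmp13 ranges from 0.707 to 5.79 with phytic acid and from 27.6 to 374 without, while Mmp2 and Mmp14 differ far less.

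Mmp12, the elastase of macrophages, lies between Mmp13 and Mmp3 and went the opposite way. It measured 9.68, 5.11, 4.87 and 10.8 FPKM in phytic acid skin and 2.09, 2.06, 1.78 and 3.36 FPKM in MC903 skin. No phytic acid library was as low as any MC903 library. The mean was 7.63 ± 3.08 FPKM in phytic acid skin and 2.32 ± 0.708 FPKM in MC903 skin (SD, n = 4 each), a log2 fold change of 1.33 ± 0.25 (SE; adjusted p = 0.00539 by limma), and the call held under all 19 alternatives in which the gene was tested. Its exons share 157 bases with Mmp1b on the other strand, 2.17% of its exon length, and whether the counting used strand is not known from the sources used here. Of 7 macrophage markers 3 were called higher (Lyz2, Adgre1 and Csf1r) and 0 lower, and Cd68, Mrc1, Cd163 and Fcgr1 were not called. The sum was 875 to 1232 FPKM in phytic acid skin and 500 to 774 FPKM in MC903 skin, most of it Lyz2, and without Lyz2 the groups overlapped, at 219 to 324 FPKM in phytic acid skin and 158 to 297 FPKM in MC903 skin. Whether this had a part in the Mmp12 result was not tested.

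The remaining genes of the cluster gave no call. Mmp27 stood at 4.43, 3.70, 2.76 and 4.69 FPKM in phytic acid skin and 7.49, 2.44, 4.75 and 4.90 FPKM in MC903 skin, with overlapping groups and a log2 fold change of -0.22 (95% interval -0.78 to 0.35). The enamel protease gene Mmp20 had at most 4 reads in any library, and Mmp7, a protease of glandular epithelia, had 2 reads in MC903 replicate 1 and 0 in the other 7 libraries. Of the tested genes on either side of the cluster, within 500 kb, Birc2 and Birc3 (inhibitors of apoptosis) and Cfap300 were called higher, at log2 fold changes of 0.44, 0.42 and 0.59, and Dync2h1, Dcun1d5, Tmem123 and Yap1 were not called. None of these neighbours differed by as much as Mmp13, Mmp3, Mmp8 or Mmp12.

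**Figure D3:**
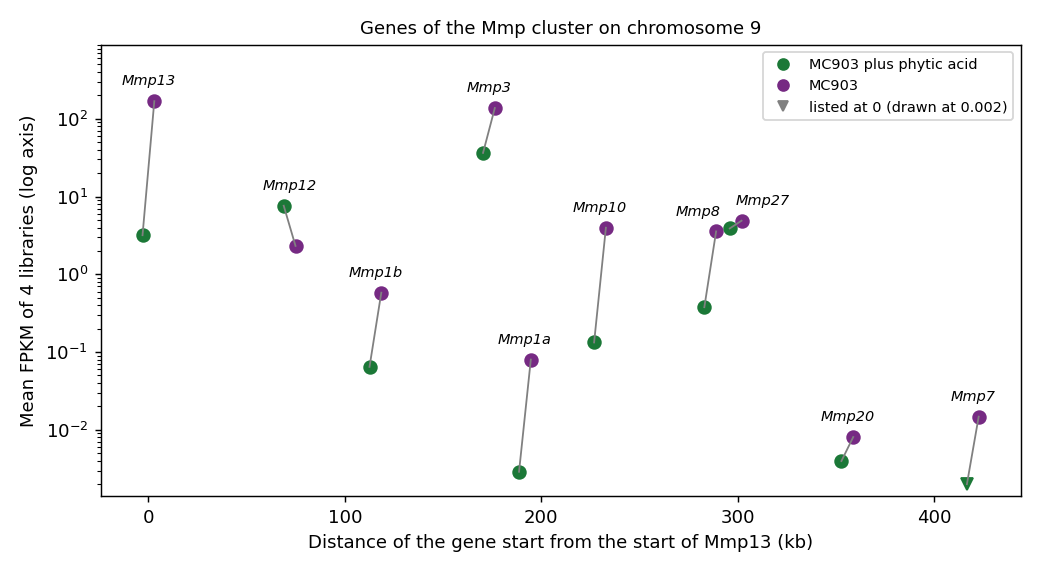
Mean FPKM of 4 libraries (log axis) for the 10 members of the chromosome 9 cluster, placed by the distance of their start from that of Mmp13 (kb), with MC903 plus phytic acid left and MC903 right at each gene. Mmp13, Mmp3 and Mmp8 were called lower and Mmp12 was called higher with phytic acid (7.63 against 2.32 FPKM), and the other 6 were not called or not tested.

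Outside the cluster, the gelatinase gene Mmp2 and the membrane-type protease gene Mmp14, whose product activates the Mmp2 precursor, were the most abundant Mmp genes and were lower by less. Mmp2 measured 35.1, 47.2, 38.7 and 35.5 FPKM in phytic acid skin and 61.6, 49.2, 49.4 and 57.6 FPKM in MC903 skin. Its groups lay close together without overlapping, and the log2 fold change was -0.47 ± 0.12 (SE; adjusted p = 0.0212 by limma). Mmp14 measured 22.9, 27.3, 24.2 and 21.8 FPKM in phytic acid skin and 34.7, 26.5, 31.1 and 34.6 FPKM in MC903 skin. Here MC903 replicate 2 lay below phytic acid replicate 2, and the log2 fold change was -0.38 ± 0.11 (SE; adjusted p = 0.0347). Without phytic acid replicate 1 or 4 or MC903 replicate 1 or 4, neither gene was called (adjusted p of 0.0563 to 0.0673 for Mmp2), and Mmp14 was not called without phytic acid replicate 3 either (0.0631 to 0.102 over its 5 lost fits). Mmp14 was also not called after scaling to TPM (0.0879). Both genes are known from fibroblasts, and of 8 fibroblast markers 2 (Dpt and Dcn) were called higher and 0 lower, with sums of 581 to 1016 FPKM in phytic acid skin and 434 to 490 FPKM in MC903 skin. Dcn and Dpt made up most of these sums. Pdgfra, Pdgfrb, Col1a1, Col1a2, Lum and Thy1 were not called, and the groups overlapped for each of them. Pdgfra and Pdgfrb were flat, at log2 fold changes of 0.004 and -0.015.

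Mmp11, a stromelysin known from stromal cells during tissue remodelling, was lower in every phytic acid library than in any MC903 library. It stood at 5.61, 6.56, 6.34 and 4.47 FPKM in phytic acid skin and 14.9, 8.28, 14.5 and 11.2 FPKM in MC903 skin, with no overlap. Its log2 fold change was -0.95 ± 0.18 (SE; adjusted p = 0.00571 by limma), and it was called under each of the 20 alternatives. On the opposite strand it shares 155 exon bases with Chchd10, 5.58% of its exon length.

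The other gelatinase gene, Mmp9, which inflammatory cells and keratinocytes express, was not called. It measured 1.37, 0.885, 2.21 and 1.72 FPKM in phytic acid skin and 1.58, 0.652, 0.495 and 5.41 FPKM in MC903 skin. MC903 replicate 4 alone was above the phytic acid libraries, and replicates 2 and 3 were below them all. For Mmp9 the log2 fold change was -0.02 with a 95% interval of -0.93 to 0.90, a wide range on both sides of 0. Mmp19, a protease found in epidermis and vessels, was likewise uneven, at 7.68, 4.99, 8.64 and 9.47 FPKM in phytic acid skin and 6.67, 7.27, 4.79 and 15.5 FPKM in MC903 skin (log2 fold change -0.05, interval -0.73 to 0.62). On the opposite strand it shares 789 exon bases with Tmem198b, 22.3% of its exon length. MC903 replicate 4 was again the highest library of its group. The membrane-type gene Mmp15 averaged 1.95 ± 0.669 FPKM in phytic acid skin and 1.72 ± 0.298 FPKM in MC903 skin (SD, n = 4 each) and was not called (adjusted p = 0.706 by limma).

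A pair of low Mmp genes outside the cluster was higher. Mmp23, a membrane-bound protease with an unusual short structure, stood at 3.36, 2.51, 1.78 and 3.27 FPKM in phytic acid skin and 0.904, 1.05, 1.58 and 0.971 FPKM in MC903 skin. The groups did not overlap, and replicate 3 was nearest to the other group on both sides. Its log2 fold change was 0.80 ± 0.17 (SE; adjusted p = 0.00823 by limma), and all 19 alternatives that tested it called it. Mmp28 (epilysin), which keratinocytes express, measured 3.65, 4.18, 3.91 and 2.59 FPKM in phytic acid skin and 1.87, 2.60, 2.22 and 2.67 FPKM in MC903 skin. Phytic acid replicate 4 lay among the MC903 libraries. For Mmp28 the log2 fold change was 0.45 ± 0.14 (SE) with an adjusted p of 0.0409, and the call was lost without any 1 library other than phytic acid replicate 4 (0.0569 to 0.116). It was lost also without a filter, with TPM, median-of-ratios or quantile scaling and by voom (0.0544 to 0.106). Mmp28 shares 466 exon bases, 12% of its exon length, with 1700020L24Rik on the opposite strand.

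Of the 4 inhibitor genes 1 was called. Timp2, which blocks Mmp proteins and also helps Mmp14 to activate the Mmp2 precursor, was the most abundant member in phytic acid skin and was higher there, at 114, 127, 105 and 102 FPKM in phytic acid skin and 95.7, 77.6, 91.2 and 82.97 FPKM in MC903 skin. Its groups did not overlap, and the log2 fold change was 0.36 ± 0.11 (SE; adjusted p = 0.0389 by limma). The call was lost without phytic acid replicate 1, 2 or 3 or MC903 replicate 1, 2 or 4 (0.0532 to 0.102), and with TPM scaling (0.0584), median-of-ratios scaling (0.0920) or library weights (0.0573).

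Timp3, the inhibitor that binds the matrix and also blocks ADAMTS proteases, measured 22.1, 25.5, 23.0 and 20.5 FPKM in phytic acid skin and 19.98, 14.5, 25.6 and 16.5 FPKM in MC903 skin. MC903 replicate 3 was the highest of all 8 libraries and the other MC903 libraries were below every phytic acid library. The log2 fold change of 0.26 ± 0.16 (SE) was not called (adjusted p = 0.256 by limma), but it was 0.41 without MC903 replicate 3 and then called (0.0336). Timp3 shares 1733 exon bases, 21.3% of its exon length, with Syn3 on the opposite strand. Timp1, the inducible and secreted inhibitor, was the least even, at 6.63, 4.17, 13.6 and 31.0 FPKM in phytic acid skin and 12.8, 10.7, 4.04 and 21.5 FPKM in MC903 skin. Replicate 4 was highest in both groups, and the log2 fold change was 0.00 with a 95% interval of -1.30 to 1.31. Timp4 averaged 4.19 ± 0.538 FPKM in phytic acid skin and 4.36 ± 0.548 FPKM in MC903 skin (SD, n = 4 each), with a log2 fold change of -0.05 and an interval of -0.30 to 0.21.

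Summed over the family, Mmp RNA measured 123, 132, 151 and 153 FPKM in phytic acid skin and 512, 610, 175 and 451 FPKM in MC903 skin. MC903 replicate 3 was nearest to the phytic acid libraries. Mmp13 and Mmp3 together made up 19.5%, 19.2%, 35.8% and 35.9% of that sum in phytic acid skin and 72.6%, 81.9%, 34.0% and 65.4% in MC903 skin. Mmp2 and Mmp14 together made up 37.4% to 56.3% of it in phytic acid skin and 12.4% to 46.0% in MC903 skin. The summed Timp RNA was 145 to 161 FPKM in phytic acid skin and 108 to 133 FPKM in MC903 skin. The Timp sum divided by the Mmp sum was 1.20, 1.21, 0.961 and 1.03 in phytic acid skin and 0.259, 0.177, 0.717 and 0.277 in MC903 skin, a ratio of RNA and not of protein. These sums are given as a description with no test.

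**Figure D4:**
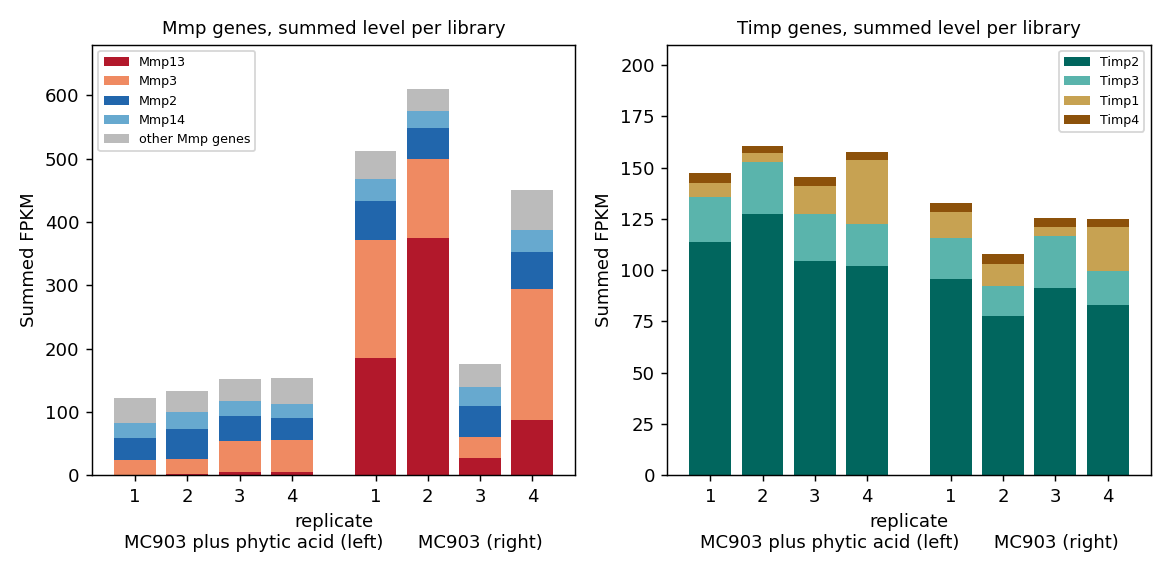
Summed FPKM of the Mmp genes (left panel) and the Timp genes (right panel) in each library, with MC903 plus phytic acid left and MC903 right in each panel and coloured segments for single genes. The Mmp bars reach 123 to 153 FPKM with phytic acid and 175 to 610 FPKM without, and Timp2 makes up most of every Timp bar.

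Among the ADAMTS proteases of proteoglycans, 2 of the 4 tested were lower. Adamts4, which cuts aggrecan and versican, stood at 0.867, 0.879, 2.65 and 1.09 FPKM in phytic acid skin and 3.42, 3.61, 2.38 and 7.42 FPKM in MC903 skin. Phytic acid replicate 3 rose above MC903 replicate 3, and the others kept apart. Adamts4 had a log2 fold change of -1.11 ± 0.30 (SE; adjusted p = 0.0235 by limma), with 0.0502 to 0.0642 without phytic acid replicate 1, 2 or 4 or MC903 replicate 2, and 0.0517 without a filter. Adamts15 measured 0.585, 1.07, 0.911 and 0.615 FPKM in phytic acid skin and 2.53, 0.921, 2.06 and 4.12 FPKM in MC903 skin. MC903 replicate 2 lay within the phytic acid range. For Adamts15 it was -0.85 ± 0.26 (SE; adjusted p = 0.0378), and the call was lost without any 1 library other than MC903 replicates 2 and 3 (0.0576 to 0.0950) and without a filter (0.0718).

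The most abundant ADAMTS genes of that kind gave no call. Adamts1, a versican protease, stood at 15.4, 22.6, 22.0 and 17.4 FPKM in phytic acid skin and 19.8, 22.7, 20.004 and 34.6 FPKM in MC903 skin, a log2 fold change of -0.29 (interval -0.72 to 0.13). Adamts5, the main aggrecan protease of mouse cartilage, stood at 7.94, 7.76, 6.79 and 8.93 FPKM in phytic acid skin and 7.58, 6.77, 6.47 and 12.1 FPKM in MC903 skin, a log2 fold change of -0.03 (interval -0.42 to 0.36). In both genes MC903 replicate 4 was above the rest and the groups overlapped.

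The procollagen N-propeptidases, which remove the amino-terminal piece of fibrillar procollagens, differed among themselves. Adamts14 was higher, at 3.78, 4.36, 3.44 and 2.06 FPKM in phytic acid skin and 0.644, 0.805, 1.62 and 0.736 FPKM in MC903 skin. No library of phytic acid skin was as low as any of MC903 skin, in which replicate 3 was far above the others. Its mean was 3.41 ± 0.977 FPKM in phytic acid skin and 0.951 ± 0.451 FPKM in MC903 skin (SD, n = 4 each), a log2 fold change of 1.17 ± 0.20 (SE; adjusted p = 0.00364 by limma), called in all 19 alternatives that tested it. Adamts2, the main enzyme of this kind in skin, stood at 9.81, 13.5, 9.67 and 8.19 FPKM in phytic acid skin and 13.5, 11.9, 13.9 and 15.5 FPKM in MC903 skin. Phytic acid replicate 2 lay among the MC903 libraries. The log2 fold change of -0.40 ± 0.14 (SE) had an adjusted p of 0.0697, but it was 0.0169 without phytic acid replicate 2, 0.0275 with median-of-ratios scaling, 0.0486 with quantile scaling and 0.0208 with library weights. Adamts3, the third of them, was at 0.0961 to 0.158 FPKM in phytic acid skin and 0.0349 to 0.338 FPKM in MC903 skin and was below the filter. Pcolce2, which helps remove the carboxy-terminal piece instead, rose in the same libraries (log2 fold change 0.95 ± 0.11, SE; adjusted p = 0.000687).

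Of the ADAMTS genes whose products cut the cartilage protein COMP, Adamts12 was not called (log2 fold change -0.12, adjusted p = 0.599 by limma), and Adamts7 was below the filter. Adamts7 measured 0.395, 0.511, 0.289 and 0.336 FPKM in phytic acid skin and 1.03, 0.621, 0.782 and 1.22 FPKM in MC903 skin, without overlap. Fitted without a filter it was called lower (adjusted p = 0.0223 by limma), as it was by voom on its reads (0.0134). Adamts10, whose human counterpart is needed for fibrillin microfibrils, measured 3.93, 3.76, 1.51 and 2.28 FPKM in phytic acid skin and 1.56, 1.23, 2.72 and 1.36 FPKM in MC903 skin. Replicate 3 was the lowest of phytic acid skin and the highest of MC903 skin, and the gene was not called (log2 fold change 0.49 ± 0.24, SE; adjusted p = 0.168), except with library weights (0.0410).

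All 3 tested ADAMTS-like genes were called, in both directions. Adamtsl1 was at 1.64, 1.82, 1.71 and 1.91 FPKM in phytic acid skin and 1.16, 1.06, 0.947 and 1.20 FPKM in MC903 skin. Its groups were tight and did not overlap, and the log2 fold change was 0.40 ± 0.09 (SE; adjusted p = 0.0135 by limma). The call was lost with quantile scaling (0.0729) and with a replicate block (0.0713). Adamtsl4, which binds fibrillin, stood at 8.25, 6.76, 3.73 and 5.32 FPKM in phytic acid skin and 2.84, 3.19, 3.92 and 3.96 FPKM in MC903 skin. Phytic acid replicate 3 lay among the MC903 libraries. Adamtsl4 had a log2 fold change of 0.61 ± 0.20 (SE; adjusted p = 0.0459), and the call was lost without any 1 library other than the replicate 3 of either group (0.0683 to 0.121), and without a filter, with TPM scaling or by voom (0.0617 to 0.0840).

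Adamtsl5, a heparin- and fibrillin-binding relative, was lower, at 5.15, 4.83, 3.13 and 3.81 FPKM in phytic acid skin and 8.38, 7.30, 4.47 and 9.51 FPKM in MC903 skin. MC903 replicate 3 lay among the phytic acid libraries. The log2 fold change was -0.66 ± 0.21 (SE; adjusted p = 0.0426 by limma), and the call was lost without phytic acid replicate 2, 3 or 4 or MC903 replicate 1, 2 or 4 (0.0614 to 0.112), without a filter (0.0791), with TPM scaling (0.0602) and by voom (0.0509). Adamtsl3, below the filter, was at 1.05, 0.944, 0.646 and 0.773 FPKM in phytic acid skin and 0.302, 0.230, 0.429 and 0.328 FPKM in MC903 skin. Its groups did not overlap, and the fits without a filter (adjusted p = 0.00773 by limma) and by voom (0.00559) called it higher.

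**Figure D5:**
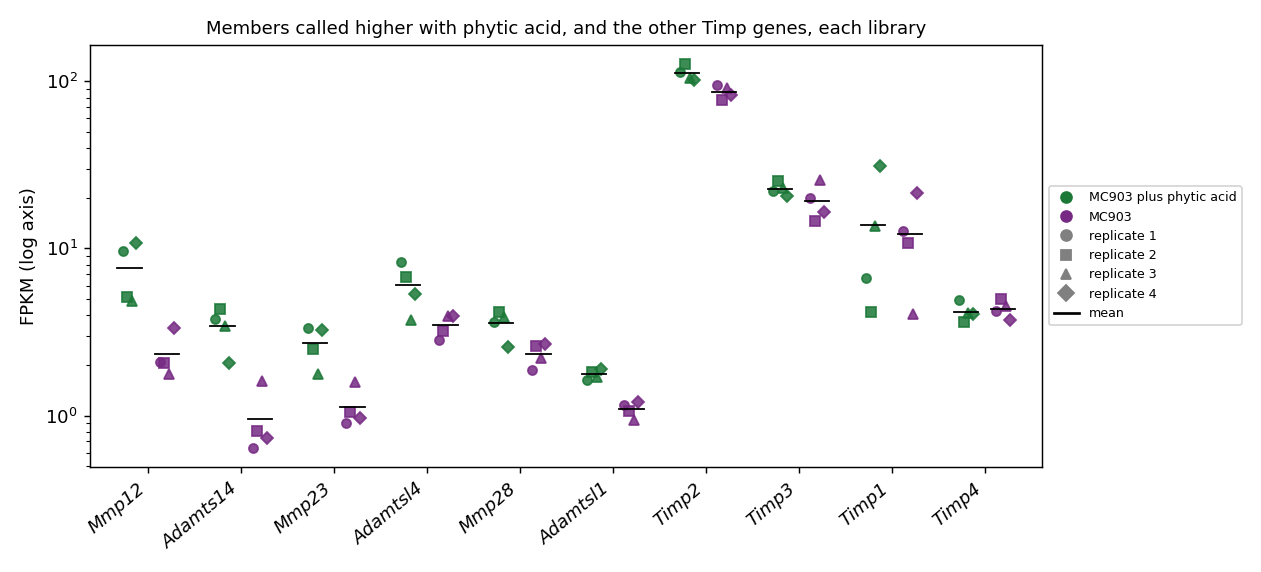
FPKM (log axis) of the 7 members called higher and of the other 3 Timp genes, in every library, with MC903 plus phytic acid left and MC903 right for each gene, markers for the replicate number and lines for the group mean. Timp2 stands at 102 to 127 with phytic acid and 77.6 to 95.7 without, and Timp1 spreads over 4.17 to 31.0 and 4.04 to 21.5.

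In all, 23 members were below the filter, and 14 of them stayed under 1 FPKM in every library. The fit without a filter called 4 of the 23, Adamts7 and Mmp1a lower and Mmp25 and Adamtsl3 higher. It called 16.5% of all the genes it tested (8.99% higher and 7.49% lower) and 7.33% of those below the filter. The voom fit on reads called Adamts7 lower and Mmp25 and Adamtsl3 higher among the 16 of the 23 that it tested, and 12.3% of all its genes higher and 9.79% lower. Mmp25, a membrane-anchored protease known from human leukocytes, measured 1.10, 1.03, 0.746 and 1.18 FPKM in phytic acid skin and 0.464, 0.441, 0.441 and 0.187 FPKM in MC903 skin, without overlap. Its adjusted p was 0.00961 without a filter and 0.0106 by voom. Both groups were fully apart for 6 of the 23 (Adamts7, Adamtsl3, Mmp10, Mmp17, Mmp1a and Mmp25), against 10.6% of all genes below the filter. Mmp17, another membrane-type gene, was at 0.330 to 0.467 FPKM in phytic acid skin and 0.218 to 0.329 FPKM in MC903 skin and was not called (adjusted p = 0.0694 without a filter). The membrane-type genes Mmp16 (0.155 to 0.385 FPKM over the 8 libraries) and Mmp24 (0.0314 to 0.0908) and the early embryonic gene Mmp21 (0 reads in 7 libraries and 4 in MC903 replicate 4) were low in both groups. So were Adamts6 (0.404 to 1.02 FPKM), Adamts9 (0.506 to 1.01), Adamts8 (0.0346 to 0.323), Adamts17 (0.136 to 0.595), Adamtsl2 (0.111 to 0.209), Adamts19 (0.0210 to 0.104), Adamts16 (at most 0.0156) and Adamts13, the protease of von Willebrand factor (0.0326 to 0.0755).

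The last members below the filter, Adamts18 and Adamts20, stood out in a lone library. Adamts18 was at 0.0338, 0.0256, 0.0160 and 0.0482 FPKM in phytic acid skin and 0.0372, 0.0674, 1.31 and 0.0604 FPKM in MC903 skin. Adamts20, which is needed for normal pigment cells in mouse skin, was at 0.412, 0.380, 0.408 and 0.455 FPKM in phytic acid skin and 0.133, 0.0694, 1.83 and 0.166 FPKM in MC903 skin. Adamts20 was also higher in each phytic acid library than in MC903 replicates 1, 2 and 4. Both genes were highest by far in MC903 replicate 3, with 502 and 619 reads there. Hair follicle markers were high in the same library, with a sum over 7 genes of 35.4 to 45.6 FPKM in phytic acid skin, 3892 FPKM in MC903 replicate 3 and 449 to 596 FPKM in the other MC903 libraries. Most of the sum in those other MC903 libraries was the single gene Tchh, at 458, 539 and 437 FPKM in replicates 1, 2 and 4. Tchh stood at 17.8 to 25.3 FPKM in phytic acid skin. Of the 3 follicle genes tested, 1 (Tchh) was called lower and 0 higher. Lhx2 and Sox9 were not called, at log2 fold changes of 0.28 and 0.55. The inner root sheath keratin gene Krt71 stood at 0.0898 FPKM at most in phytic acid skin, at 1373 FPKM in MC903 replicate 3 and at 0.0289 to 22.3 FPKM in the other MC903 libraries. The part of hair follicles in these values was not tested.

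Genes that act on these families were examined as lists. Of 22 tested growth factors, cytokines and transcription factors known to induce Mmp genes, 4 were called lower and 0 higher. Their median log2 fold change was -0.11. Those 4 were Areg (amphiregulin, -2.67 ± 0.31, SE), the AP-1 subunit genes Junb (-0.91 ± 0.26) and Fosl2 (-0.43 ± 0.09), and Il1a (-0.63 ± 0.17). Areg averaged 3.72 ± 1.77 FPKM in phytic acid skin and 29.3 ± 10.03 FPKM in MC903 skin (SD, n = 4 each). Jun was not called, at 30.3 ± 6.17 FPKM in phytic acid skin and 30.8 ± 6.07 FPKM in MC903 skin (SD, n = 4 each), nor was Fos (adjusted p = 0.542 by limma).

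Of 8 tested activators, 2 were called higher and 0 lower: Pcsk6, a proprotein convertase (0.49 ± 0.11, SE), and Plat, tissue plasminogen activator (0.60 ± 0.14). Plau, the urokinase gene, was not called (20.1 ± 1.04 FPKM in phytic acid skin and 19.2 ± 3.17 FPKM in MC903 skin, SD, n = 4 each). Of 6 tested inhibitors outside the Timp family, Reck, a membrane-anchored inhibitor of Mmp proteins, was called higher (0.49 ± 0.16, SE; adjusted p = 0.0490 by limma) and 0 were lower. Of 11 related metalloproteases and procollagen helpers, Pcolce2 and Adam19 (0.58 ± 0.14) were called higher and 0 lower.

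Of 26 tested substrates, 4 were called higher and 3 lower. Their median log2 fold change was 0.34. The lower ones included Tnc (tenascin C, -2.30 ± 0.57, SE) and Spp1 (osteopontin, -1.52 ± 0.37), and the higher ones were Fn1 (fibronectin, 1.09 ± 0.24), Col14a1 (0.90 ± 0.24), Dcn (decorin, 0.61 ± 0.15) and Ltbp1 (0.33 ± 0.09). Among all genes tested 25.8% were called, so the shares called in these lists (4 of 22 inducers, 7 of 26 substrates) were near or under it.

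Markers of cell types moved between the groups in the same libraries. Some genes belong to several lists, so their calls are counted in each. Among them are Areg (inducers and wound keratinocytes) and Dcn (substrates and fibroblasts). Wound keratinocyte genes summed to 835 to 1340 FPKM in phytic acid skin and 3440 to 6910 FPKM in MC903 skin, with 4 of 7 called lower and 0 higher. MC903 replicate 3 was the lowest MC903 library of that list, and also of the neutrophil, macrophage, Schwann cell and (with Krt14) basal keratinocyte lists. Among the members it was lowest for Mmp13, Mmp3, Mmp10, Mmp1a and Mmp1b. The same held for Adamts4 and Adamtsl5, called lower, and for Mmp12 and Adamtsl1, called higher. It also held for Mmp9, Mmp19, Timp1 and Adamts5, which were not called, and for Adamts8. Basal keratinocyte genes were mixed, with Krt14 called lower, Krt15 called higher and the other 5 of 7 not called. Their sum was 2613 to 3096 FPKM in phytic acid skin and 4372 to 7931 FPKM in MC903 skin with Krt14, and without it 1366 to 1558 FPKM in phytic acid skin and 964 to 1311 FPKM in MC903 skin, the opposite direction. Skeletal muscle genes summed to 7590 to 8776 FPKM in phytic acid skin and 3608 to 4141 FPKM in MC903 skin, with 7 of 8 called higher, and adipocyte genes to 177 to 367 FPKM in phytic acid skin and 91.6 to 173 FPKM in MC903 skin, with 1 of 6 called higher. Smooth muscle and pericyte genes (4 of 6 higher), Schwann cell genes (4 of 7 higher), differentiated keratinocyte genes (5 of 7 higher and 1 lower), T cell genes (3 of 3 higher) and dendritic and Langerhans cell genes (6 of 6 higher) differed too. Endothelial genes gave 0 calls of 7 and mast cell genes 1 lower of 7. Of 7 cartilage genes 0 were tested, and Col2a1, their defining marker, was at 0.0339 FPKM at most. The part of these cell types in the values of the members was not tested.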

How the data were processed

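RNA of 8 mouse skin samples was measured by RNA sequencing. TRIzol extraction and a SMARTER mRNA library kit were used, per the labels' protocols. The authors deposited 1 table of FPKM values per gene and library. Per the submitters' processing notes, cutadapt, HISAT2, TopHat2, DESeq and the build mm10 were used, without roles. The sources used here give no versions, annotation or strand setting.

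Of 21959 rows, 51 without a name (0.0160% to 0.0238% of a column) were left out, and of 21 repeated names the row of highest mean was kept. FPKM times exon length (GENCODE release for GRCm38) was within 0.05 of whole reads in all libraries for 17509 of 17980 genes (97.4%), among them all 51 members, which gave reads and totals; the commonest lowest value was 2 reads, as for read pairs. The chi-square check compared these reads. No interval on reads is given.

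Values were fitted as log2(FPKM + 1) with limma 3.58.1 in R 4.3.3 (eBayes with a trend), with group as the factor, for genes reaching FPKM 1 in 4 or more libraries; tests are two-sided, and 95% intervals use limma's degrees of freedom. The procedure was tested on simulated data. The members and lists were chosen with earlier results of these data known. Members called, or with a mean FPKM of at least 5, are given by library, others by mean or range; of gene lists up to 4 called members are named, and 1 substrate gene is not reported here. Members below the filter that stood out were named after their values were seen. Alternatives are given in the closing section; voom on reads was chosen after seeing the data.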

Additional observations from a re-analysis of the deposited data

Results flagged for a closer look

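In 6 of the 74 groups of 4 libraries examined (37 members that reach 1 FPKM somewhere), a library lay apart from the other 3 by more than Dixon's critical share of the group's whole range, which chance alone does in about 1 in 20 groups. In MC903 skin these were replicate 3 for Adamts18 (1.31 FPKM), Adamts20 (1.83 FPKM) and Adamts14 (1.62 FPKM), each the highest of its group, and replicate 4 for Mmp25 (0.187 FPKM), the lowest. In phytic acid skin they were replicate 3 for Adamts4 (2.65 FPKM) and for Mmp1b (0.225 FPKM, from 14 reads), the highest of their groups. Replicate 3 of MC903 skin is also the library with high hair follicle markers (3892 FPKM in sum), and their part in these values was not tested.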

How the results depend on the processing

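No called member changed direction under any alternative that tested it: their refits kept the call 224 times and lost it 87 times, and members that were not called became called 6 times. The number of all genes called (3134) was 4796 with library weights, 2046 with a replicate block and 2013 (without MC903 replicate 1) to 3979 (without MC903 replicate 3) with a library left out. Members called lower (9) were 3 to 9, and members called higher (7) were 4 to 7, with a library left out. With a replicate block 4 were lower (Mmp13, Mmp11, Mmp8 and Adamtsl5) and 3 higher (Mmp12, Mmp23 and Adamts14). Members called higher were 4 after TPM scaling and 1 of 13 tested with a mean FPKM of at least 5. Deviations of same-numbered samples had correlations of -0.284, -0.105, -0.286 and 0.225, against -0.285 to 0.398 between samples of unlike number. Deviations were taken from each group's own mean, so these values cannot settle whether the numbers pair the samples. No scaling moved the median of all genes by over 0.1 on the log2 scale.

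Log2 fold changes of 6 members near 0, called in no fit, changed sign, and the cause was not tested. Mmp9 was at 0.140 and 0.181 with pseudocounts of 0.1 and 0.01, 0.0917 with TPM scaling and 0.181 by voom. Timp1 was at -0.0055 and -0.0065 with these pseudocounts, -0.072 with median-of-ratios scaling, -0.029 with quantile scaling and -0.0766 with library weights. Mmp15 was at -0.0221 with quantile scaling, Mmp19 at 0.0147 with library weights and Adamts5 at 0.0011 with TPM scaling. With a library left out, Adamts5 was at -0.115 to 0.155, Mmp15 at -0.033 to 0.213, Mmp19 at -0.256 to 0.249, Mmp9 at -0.268 to 0.432, Timp1 at -0.483 to 0.394 and Timp4 at -0.114 to 0.0082. Depth limits the members below the filter most: Mmp1a, Mmp7, Mmp20, Mmp21 and Adamts16 had 8 reads or fewer in every library.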
